A study of Mus musculus with 11 samples.

Results

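The CD300 genes of the mouse form a cluster on chromosome 11 and encode cell surface receptors of myeloid cells. Here 7 of them, Cd300e, Cd300c2, Cd300ld3, Cd300ld, Cd300lf, Cd300a and Cd300lb, were taken by symbol from a table of 21860 genes measured by bulk RNA sequencing. The table lists 12 Cd300 genes in all. The 7 were picked with their levels in these samples in view, so their differences between groups are given as a description, with an error. Calls of these genes in a test over all genes are reported too, but nothing is read from them. The samples were 11 preparations of CD11b-low EpCAM+ cells sorted at day 6 from cultures of mouse bone marrow monocytes, myeloid cells that can give rise to Langerhans cells of the epidermis and mucosa. The growth factor GM-CSF (20 ng/ml) was in every culture. Of the 5 groups, 4 also received IL-34 (8 µg/ml) together with TGFβ (5 ng/ml), cytokines that direct monocytes toward Langerhans cells. The cultures with both cytokines and Jag1 were called TGFβ/IL-34/Jag1/FICZ where FICZ was added and TGFβ/IL-34/Jag1 where it was not, each with 3 samples. Those without Jag1 were called TGFβ/IL-34/FICZ and TGFβ/IL-34, each with 2 samples. The fifth group, Jag1 only, was 1 sample without TGFβ or IL-34. Jag1 is a ligand of Notch receptors and was presented by OP9-Jag1 cells, a stromal line that carries it. FICZ is a ligand of the aryl hydrocarbon receptor (Ahr) that the study used as an agonist, although the deposited design text calls it an antagonist. The labels name co-culture with OP9 for all 11 samples, while the descriptions of the cultures without Jag1 name monocytes alone, so Jag1 and the presence of stroma cannot be told apart. Nothing in the labels says that the cultures came from separate animals, and the errors cover the spread between these samples, which may be technical.

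CD300 receptors belong to the immunoglobulin superfamily and bind lipids such as phosphatidylserine, phosphatidylethanolamine, ceramide and sphingomyelin on dying cells and membranes. Cd300a and Cd300lf carry long cytoplasmic tails with inhibitory tyrosine motifs that recruit the phosphatases Shp1 (Ptpn6), Shp2 (Ptpn11) and Ship1 (Inpp5d). Cd300e, Cd300lb, Cd300ld and Cd300c2 have short tails and signal through adaptor chains, of which Tyrobp (DAP12), Fcer1g (the Fc receptor γ chain) and Hcst (DAP10) are the known ones, and from there through the kinase Syk. Cd300e is known as a surface marker of non-classical monocytes.

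Libraries summed to 21.3 to 27.9 M normalized counts (M, counts in units of 1e6), the unit of all levels given here. A single read was worth 0.896 to 1.15 normalized counts, which gives an estimated 20.6 to 24.2 M reads per library and a floor of 2.69 to 3.45 normalized counts for 3 reads. Such floors cover counting error only. The Langerhans cell markers (7 of 7 in the table, none at 0 in every library of a group) summed to 308868 in the Jag1 only sample. Their sum was 941790 to 1051350 in TGFβ/IL-34/Jag1 and 376658 to 513828 in TGFβ/IL-34/Jag1/FICZ. It was 707702 to 817417 in TGFβ/IL-34 and 521282 to 898780 in TGFβ/IL-34/FICZ. Within the list, Cd207 (langerin) ranged from 6.21 in TGFβ/IL-34/FICZ to 1784 in TGFβ/IL-34/Jag1, so it made up little of the sum. The TGFβ/IL-34/FICZ libraries stood apart from each other. The sialic acid receptor gene Siglecf, for example, stood at 286.3 in one and 1866 in the other. In the comparison with TGFβ/IL-34, 3 genes passed with both libraries. With 1 library left out, the remaining one was assumed to vary like the other groups, and 5734 genes passed without replicate 2 and 0 without replicate 1. Replicate 3 of TGFβ/IL-34/Jag1/FICZ also differed from the others of its group, with Cd207 at 132.2 against 8.39 and 6.29. Flow cell and experiment were not balanced over the groups. Replicate 1 of TGFβ/IL-34/FICZ and replicate 1 of TGFβ/IL-34/Jag1/FICZ were on a flow cell of their own. The TGFβ/IL-34/FICZ libraries thus differed in flow cell as well as in experiment code, and neither carried the code AA48. For TGFβ/IL-34 replicate 1, the code differed between its description and the authors' table. Since these are bulk samples, fewer cells of a type and less RNA per cell cannot be told apart.

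The 7 genes lie within 256 kb of chromosome 11 (GRCm39, GENCODE vM39), from 114768840 to 115024818. Cd300a (114768840 to 114795480) is on the plus strand, and the others are on the minus strand. In order of position these are Cd300lb (114813607 to 114825212), Cd300ld (114873099 to 114880748), Cd300c2 (114887546 to 114895068), Cd300ld3 (114932957 to 114939235), Cd300e (114942743 to 114957500) and Cd300lf (115007040 to 115024818). Of 17 genes annotated in this stretch, 12 were in the table and 9 reached 10 normalized counts in 2 or more samples, the filter for the fit. All 7 members passed it. Cd300ld3 was at or under the 3-read floor in every library of 3 groups, so it passed only through Jag1 only and TGFβ/IL-34/Jag1.

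Cd300e had the widest range of the family. It stood at 4232, 6841 and 7493 normalized counts in the TGFβ/IL-34/Jag1 samples and at 33.3 and 14.2 in the TGFβ/IL-34 samples. With FICZ added to TGFβ/IL-34/Jag1 it stood at 18.6, 37.6 and 170.8, and in both TGFβ/IL-34/FICZ samples it was at 0. The Jag1 only sample had 75.6. Every TGFβ/IL-34/Jag1 sample was thus above every sample of the other groups, of which TGFβ/IL-34/Jag1/FICZ replicate 3 was the highest. The ratio of group means was 260.2 for Jag1 without FICZ and 81.8, lower, for FICZ in the presence of Jag1. On the log2(normalized count + 1) scale of the fit, the differences were 8.04 ± 0.764 and −6.89 ± 0.683 (SE). Against the 3-read floor, the mean with Jag1 and FICZ was at least 24.6-fold higher than in TGFβ/IL-34/FICZ, and TGFβ/IL-34 was at least 7.75-fold higher than TGFβ/IL-34/FICZ. These sizes rested in part on single libraries. Without TGFβ/IL-34/Jag1/FICZ replicate 3, the ratio of 81.8 became 220.3 and the bound of 24.6 became 9.15. Without TGFβ/IL-34 replicate 1, the ratio of 260.2 became 434.4 and the bound of 7.75 became 4.64. TGFβ/IL-34/Jag1/FICZ overlapped both Jag1 only and TGFβ/IL-34, and only TGFβ/IL-34/FICZ lay below all other groups.

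**Figure D1:**
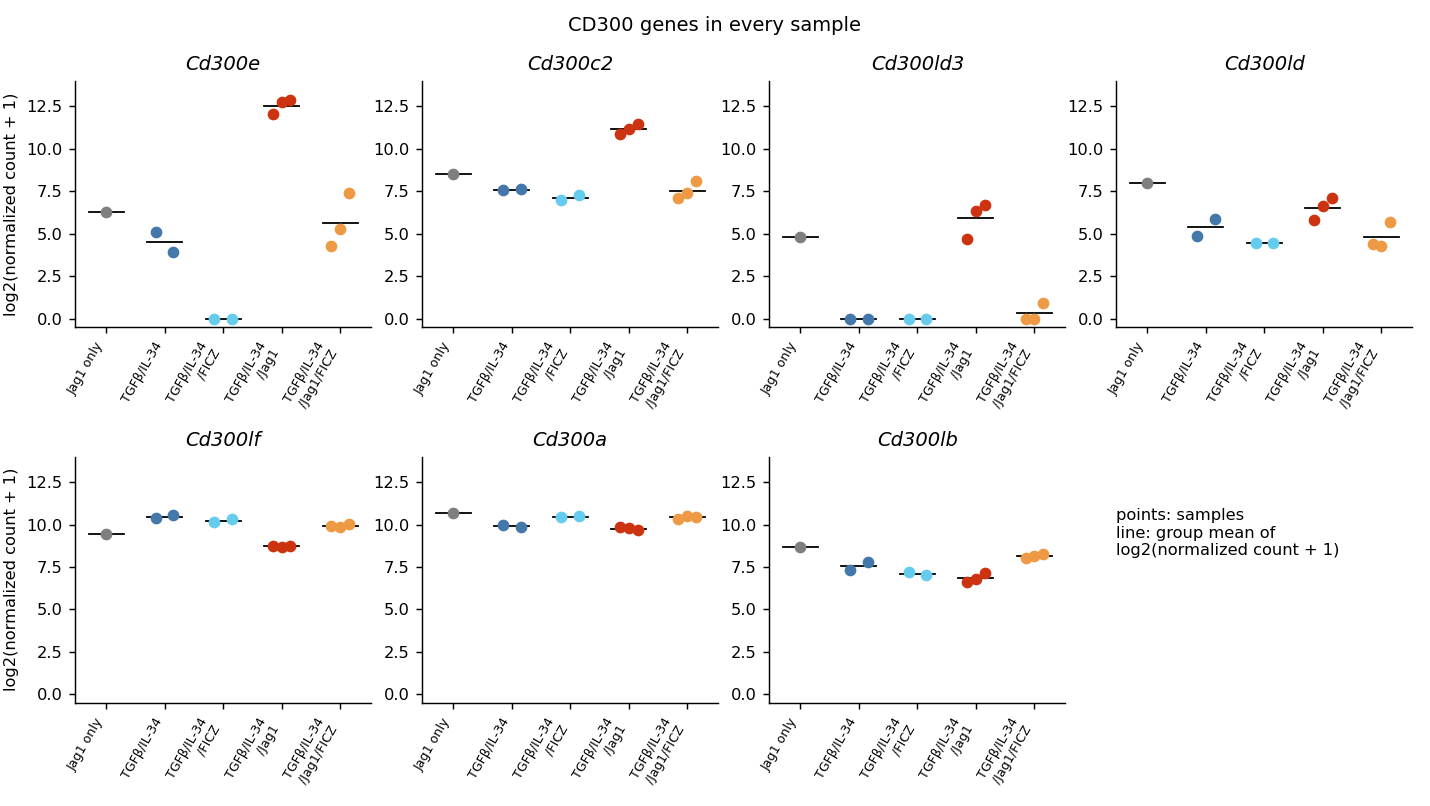
Normalized counts of the 7 CD300 genes as log2(value + 1) on the y axis in the 5 culture groups on the x axis. Points are samples and the horizontal line is the group mean. The 3 TGFβ/IL-34/Jag1 samples sit above all others for Cd300e (4232 to 7493) and Cd300c2 (1890 to 2887) and below all others for Cd300lf (405.2 to 434.8).

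The 250 bases upstream of the canonical transcript start of Cd300e, Cd300c2 and Cd300lf are given here because these genes spanned the family's opposite patterns, Cd300e and Cd300c2 with their highest level and Cd300lf with its lowest level in TGFβ/IL-34/Jag1. They were read from GRCm39 on the minus strand, 5′ to 3′. The Cd300c2 window lies inside the annotated span of Cd300c2 itself (114887546 to 114895068), which has 14 transcripts. The Cd300lf window lies inside the span of Rab37 (114982257 to 115053074). The windows were not searched for exons of other transcripts. Capitals mark the RBPJ motif GTGGGAA (RBPJ is the DNA-binding partner of Notch) and the PU.1 core GAGGAA (PU.1 is a myeloid transcription factor) on either strand, so that TTCCCAC and TTCCTC are the same motifs on the other strand. The core of the Ahr response element, GCGTG, was searched as well and was in none of these 3.
Cd300e, chr11:114957501-114957750: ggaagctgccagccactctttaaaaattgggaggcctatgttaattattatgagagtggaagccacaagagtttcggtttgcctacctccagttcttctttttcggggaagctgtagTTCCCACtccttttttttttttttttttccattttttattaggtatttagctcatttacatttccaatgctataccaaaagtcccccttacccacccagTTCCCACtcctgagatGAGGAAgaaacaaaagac
Cd300c2, chr11:114892707-114892956: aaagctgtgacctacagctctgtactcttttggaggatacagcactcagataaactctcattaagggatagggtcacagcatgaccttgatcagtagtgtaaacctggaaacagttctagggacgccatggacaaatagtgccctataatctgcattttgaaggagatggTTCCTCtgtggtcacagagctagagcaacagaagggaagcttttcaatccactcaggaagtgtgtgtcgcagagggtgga
Cd300lf, chr11:115024819-115025068: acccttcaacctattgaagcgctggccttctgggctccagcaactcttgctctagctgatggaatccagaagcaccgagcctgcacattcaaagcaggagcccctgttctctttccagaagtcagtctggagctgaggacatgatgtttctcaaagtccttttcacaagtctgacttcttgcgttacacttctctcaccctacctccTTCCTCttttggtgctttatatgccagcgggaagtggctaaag
The Cd300e window held 2 RBPJ matches, which began 133 and 34 bases before the start, and 1 PU.1 match 18 bases before it. Cd300a, which differed little with Jag1, had 1 RBPJ match and 1 PU.1 match in its window, and the other 5 members had no RBPJ match. The Cd300a window (114780617 to 114780866) lies inside the annotated span of Cd300a itself (114768840 to 114795480), which has 8 transcripts. Each of Cd300c2, Cd300ld, Cd300ld3 and Cd300lf had 1 PU.1 match, and Cd300lb had none but held the 1 Ahr core in the family. Over 21770 windows of the same length, one per gene, 5.48% held the RBPJ motif, 22.9% the PU.1 core and 31.2% the Ahr core. A match is a description of the letters and not a binding site.

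Cd300c2, whose product pairs with Fcer1g, followed a like course at a higher starting level. It stood at 1890, 2335 and 2887 normalized counts in TGFβ/IL-34/Jag1 and at 189.2 and 195.6 in TGFβ/IL-34. In TGFβ/IL-34/Jag1/FICZ it stood at 134.8, 165.1 and 270.7, in TGFβ/IL-34/FICZ at 124.8 and 152.2, and in Jag1 only at 365.7. The TGFβ/IL-34/Jag1 samples did not overlap any other sample, whereas the 2 groups with FICZ overlapped each other and TGFβ/IL-34 fell inside the range of TGFβ/IL-34/Jag1/FICZ. Its mean was 12.3-fold higher with Jag1 than without, and 12.5-fold lower when FICZ was added to Jag1 (log2 difference 3.60 ± 0.306 and −3.67 ± 0.274, SE).

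Cd300ld3 was measured at low levels and is the member least separable by sequence. It stood at 24.9, 80.1 and 104.7 normalized counts in TGFβ/IL-34/Jag1 and at 26.8 in Jag1 only. All TGFβ/IL-34 and TGFβ/IL-34/FICZ libraries were at 0, and TGFβ/IL-34/Jag1/FICZ had 0, 0 and 0.930, the last being the worth of 1 read. Its signal was therefore above the floor in the 4 cultures with Jag1 and no FICZ and at or under the floor in the other 7. The mean of TGFβ/IL-34/Jag1 was at least 24.5-fold higher than that of TGFβ/IL-34, against the 3-read floor per library. A fitted difference of 5.92 ± 0.822 (SE, log2) depends on the pseudocount and is no bound.

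Its coding sequence of 735 bases differs from that of Cd300ld5 at 3 positions, all within the first 30 bases counted from the A of the start codon (A15T, T25A and T30C, with the Cd300ld3 base first). The first 35 coding bases of both genes are shown because the genes are told apart in their coding sequence by these positions, which are in capitals (GRCm39, minus strand).
Cd300ld3, chr11:114939087-114939121: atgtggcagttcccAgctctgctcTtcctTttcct
Cd300ld5, chr11:114928447-114928481: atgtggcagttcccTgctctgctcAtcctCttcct
Across its transcript, 84.1% of the 31-base words of Cd300ld3 also occurred in a transcript of another Cd300 gene, mostly Cd300ld5 and Cd300ld4 (coding identity 99.6% and 99.5%). Those 2 genes and Cd300ld2 stood at no more than 1.98 normalized counts in any library. The level assigned to Cd300ld3 thus rests on the 15.9% of its words that are its own, and a share of the reads of this gene group could have been placed on a neighbour. Among the other members, the shared fraction was 0% for Cd300lb, 4.73% for Cd300e (with genes outside the family only), 4.74% for Cd300lf, 6.64% for Cd300ld, 7.62% for Cd300c2 (chiefly with Cd300a) and 8.90% for Cd300a.

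**Figure D2:**
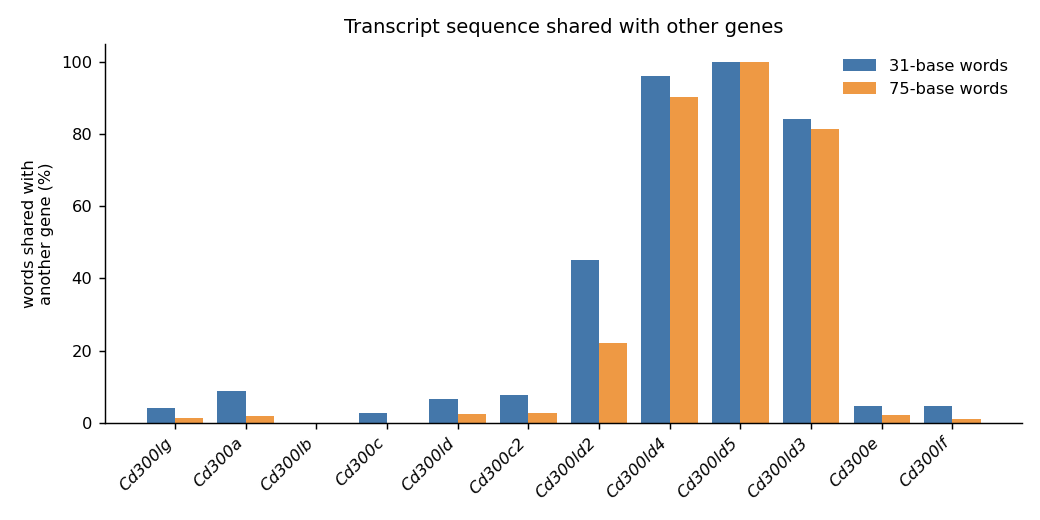
Share of 31-base and 75-base words in the transcripts of each Cd300 gene that also occur in a transcript of another gene (y axis, percent), with genes on the x axis in order of position. Cd300ld2, Cd300ld3, Cd300ld4 and Cd300ld5 share 45%, 84.1%, 96.2% and 100% of their 31-base words, and each other gene shown shares at most 8.90%.

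Cd300ld, an Fcer1g-linked activating receptor, had its highest level in the single Jag1 only sample, at 252.1 normalized counts. It stood at 55.7, 99.9 and 137.4 in TGFβ/IL-34/Jag1, at 28.7 and 57.0 in TGFβ/IL-34, at 20.5, 18.8 and 51.1 in TGFβ/IL-34/Jag1/FICZ, and at 20.7 and 20.6 in TGFβ/IL-34/FICZ. TGFβ/IL-34/Jag1 overlapped TGFβ/IL-34 but not TGFβ/IL-34/Jag1/FICZ. The FICZ difference with Jag1 was −1.72 ± 0.495 (SE, log2), a 3.24-fold lower mean (4.97-fold without TGFβ/IL-34/Jag1/FICZ replicate 3). The difference was −1.43 and −1.66 without TGFβ/IL-34/Jag1 replicate 3 or 2 and −1.53 and −1.47 without TGFβ/IL-34/Jag1/FICZ replicate 1 or 2, and in each of these 4 cases Cd300ld no longer passed the threshold of the fit. It also did not pass with flow cell as a block (−1.61) or with no filter on low values (−1.72, as in the fit itself).

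Cd300lf, an inhibitory receptor, was ordered the other way. It stood at 1315 and 1538 normalized counts in TGFβ/IL-34, at 1121 and 1286 in TGFβ/IL-34/FICZ and at 962.6, 939.7 and 1041 in TGFβ/IL-34/Jag1/FICZ. The Jag1 only sample had 704.2, and TGFβ/IL-34/Jag1 had 423.2, 405.2 and 434.8. No 2 of the 5 groups overlapped. In the comparisons of 2 groups made here, such non-overlap held for 35.8% to 54.2% of all tested genes. The Cd300lf mean was 3.39-fold lower with Jag1 than without (log2 difference −1.75 ± 0.164, SE) and 2.33-fold higher when FICZ was added to Jag1 (1.22 ± 0.147).

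Cd300a, the other inhibitory member, varied least. It stood at 1021 and 927.8 normalized counts in TGFβ/IL-34 and at 909.9, 882.9 and 827.2 in TGFβ/IL-34/Jag1. Both groups with FICZ were above these, with 1415 and 1430 in TGFβ/IL-34/FICZ and 1283, 1435 and 1405 in TGFβ/IL-34/Jag1/FICZ. The Jag1 only sample was the highest, at 1627. The groups with FICZ overlapped each other, and the FICZ difference was 0.65 ± 0.134 with Jag1 and 0.55 ± 0.164 without (SE, log2). The Jag1 difference was −0.16 ± 0.150 without FICZ and −0.05 ± 0.150 with FICZ.

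Cd300lb, an activating receptor that signals through Tyrobp, also had its highest level in Jag1 only, at 406.3 normalized counts. TGFβ/IL-34/Jag1/FICZ followed at 265.5, 279.6 and 312.4, then TGFβ/IL-34 at 156.5 and 221.6, TGFβ/IL-34/FICZ at 145.8 and 130.3, and TGFβ/IL-34/Jag1 at 98.1, 107.9 and 142.9. The last 2 groups overlapped. The FICZ difference was 1.31 ± 0.240 with Jag1, a 2.46-fold higher mean, and −0.43 ± 0.294 without Jag1 (SE, log2).

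**Figure D3:**
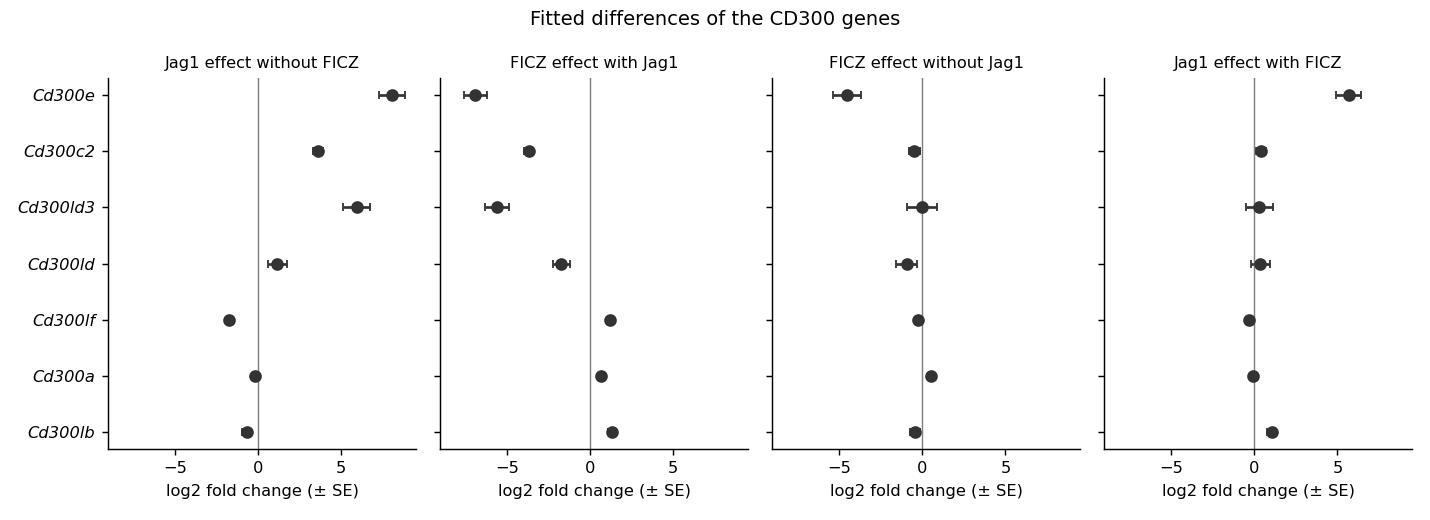
Log2 differences on the log2(normalized count + 1) scale (x axis, points with SE bars) of the 7 CD300 genes (y axis) in 4 comparisons. Cd300e, Cd300c2 and Cd300ld3 lie to the right for Jag1 without FICZ (8.04, 3.60 and 5.92) and to the left for FICZ with Jag1 (−6.89, −3.67 and −5.60), and Cd300lf lies on the opposite side in both.

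Per kb of canonical transcript, a scale that assigns each gene this 1 length, the groups differed in the make-up of the family. Cd300a, Cd300c2 and Cd300lf have 8, 14 and 13 annotated transcripts. Which of these were present was not tested and no other length was tried, so shares of different genes hold for the canonical lengths only. The 7 genes summed to 5399 ± 1253 normalized counts per kb (SD, n = 3) in TGFβ/IL-34/Jag1, against 1221 ± 90.8 (n = 2) in TGFβ/IL-34, 1117 ± 76.4 (n = 2) in TGFβ/IL-34/FICZ, 1122 ± 148 (n = 3) in TGFβ/IL-34/Jag1/FICZ and 1334 in Jag1 only. In TGFβ/IL-34/Jag1, Cd300e made up 52.0% ± 3.65 and Cd300c2 37.2% ± 2.40 of this sum, and the inhibitory Cd300lf and Cd300a made up 4.30% ± 1.10 and 3.65% ± 1.09 (SD, n = 3). In TGFβ/IL-34, by contrast, Cd300lf made up 61.9% ± 2.25 and Cd300a 17.3% ± 2.44, with Cd300c2 at 13.3% ± 0.673 and Cd300e at 0.913% ± 0.573 (SD, n = 2). In TGFβ/IL-34/Jag1/FICZ, Cd300lf again led with 46.7% ± 3.90, followed by Cd300a at 26.6% ± 2.82, Cd300c2 at 14.0% ± 3.32 and Cd300e at 2.84% ± 2.82 (SD, n = 3). For Cd300lf (42.8% to 50.6%, against 60.3% to 63.5%) and Cd300a (23.5% to 28.9%, against 15.5% to 19.0%), the samples did not overlap those of TGFβ/IL-34. In normalized counts, 54.2% of all tested genes did not overlap between these groups. Cd300lf was also the leading member in TGFβ/IL-34/FICZ, at 57.1% ± 1.63. In both groups with FICZ this lead rests on the lengths used, 1885 bases for Cd300lf and 4645 for Cd300a. In normalized counts Cd300a was higher than Cd300lf there, with means of 1374 against 981 with Jag1 and 1422.5 against 1203 without Jag1. In Jag1 only, Cd300lf (373.6 normalized counts per kb), Cd300a (350.2) and Cd300c2 (307.9) were close to one another on this scale, and Cd300lb made up 10.6% of the sum.

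**Figure D4:**
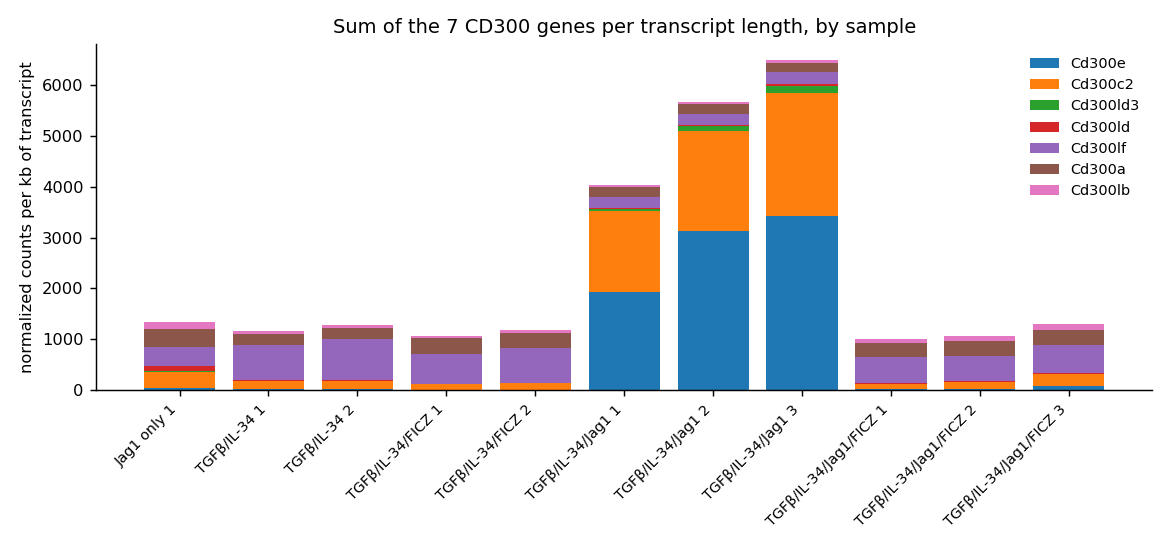
Sum of the 7 CD300 genes in each sample (x axis), in normalized counts per kb of canonical transcript (y axis), stacked by gene. The 3 TGFβ/IL-34/Jag1 samples reach 4032 to 6493, mostly Cd300e and Cd300c2, and the other 8 lie between 1009 and 1334.

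Counts of members past the threshold of the fit over 13095 genes (limma, adjusted p under 0.05) are given with the share of all tested genes, and nothing is read from them since the members were chosen on these samples. For Jag1 without FICZ, 4 of 7 passed (Cd300e, Cd300c2 and Cd300ld3 higher, Cd300lf lower), against 6.60% of all genes. For FICZ with Jag1, 7 of 7 passed (Cd300a, Cd300lb and Cd300lf higher, the other 4 lower), against 17.7%. For Jag1 with FICZ, 1 passed (Cd300e, higher), against 2.02%. None passed for FICZ without Jag1 (2 at an unadjusted p under 0.05) or for both agents together (3 at an unadjusted p under 0.05), where 0.0229% and 4.48% of all genes did. Without TGFβ/IL-34/FICZ replicate 2, 2 passed for FICZ without Jag1 (Cd300e lower, Cd300a higher) and 2 for Jag1 with FICZ (Cd300e and Cd300lb higher), but in these refits 43.9% and 44.6% of all genes passed. In the interaction, the difference between the FICZ differences with and without Jag1, 3 passed (Cd300ld3 and Cd300c2 lower, Cd300lf higher), against 1.39%. This count was 0 without either TGFβ/IL-34 sample or without TGFβ/IL-34/Jag1/FICZ replicate 2, and 1 without replicate 1 or 3 of the latter group. Ranges of the 2 groups did not overlap for 6 members in the Jag1 comparison without FICZ and for 7 in the FICZ comparison with Jag1, against 46.6% and 45.1% of all tested genes. For FICZ without Jag1, both together and Jag1 with FICZ, this held for 6, 3 and 3 members, against 45.7%, 54.2% and 35.8%. The comparisons of FICZ with Jag1 and of Jag1 without FICZ share the TGFβ/IL-34/Jag1 samples.

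Across the 11 samples, log2 levels of Cd300e, Cd300c2 and Cd300ld3 moved together (Pearson r 0.929 for Cd300e with Cd300c2, 0.853 with Cd300ld3, and 0.938 for Cd300c2 with Cd300ld3). Cd300lf moved against them (r −0.876, −0.923 and −0.927), and Cd300a with Cd300lb had r 0.643. These are descriptions over 11 samples that share 5 culture conditions. Among 10918 other genes with a mean of at least 50, the profiles most like Cd300e were those of Gcsam (r 0.994), Pxdc1 (0.983) and Trib2 (0.976). For Cd300c2 these were Cd7 (0.982), Pxdc1 (0.977) and Gprc5c (0.975), and for Cd300ld3 Slc37a1 (0.981), Aoc1 (0.967) and Ankrd9 (0.963). The profile of Cd300lf was most like those of the β2 integrin chain Itgb2 (0.977), the water channel Aqp9 (0.963) and Kcnk13 (0.961). Cd300a came closest to Dusp5 (0.953), Kdm1a (0.947) and Ecm1 (0.946), Cd300lb to Adnp2 (0.957), Thada (0.930) and Klrk1 (0.922), and Cd300ld to Btbd3 (0.965), Sirpa (0.946) and Galnt12 (0.917).

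Of the other Cd300 genes in the table, Cd300c passed the filter. It stood at 51.1, 55.6 and 45.1 normalized counts in TGFβ/IL-34/Jag1 and at 7.19, 15.4 and 17.3 in TGFβ/IL-34/Jag1/FICZ, without overlap. In this comparison 45.1% of all tested genes did not overlap. With Jag1 present, Cd300c was lower with FICZ by a log2 difference of −1.93 ± 0.436 (SE, limma, adjusted p = 0.0119). In TGFβ/IL-34 it stood at 25.1 and 30.2, and its Jag1 difference of 0.85 ± 0.488 did not pass (adjusted p = 0.410). Cd300ld2, Cd300ld4 and Cd300ld5 were under the 3-read floor throughout, and Cd300lg lies apart on the same chromosome (101932328 to 101946950).

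Some neighbours of the cluster changed as well. Gprc5c, an orphan receptor gene that ends upstream of Cd300a, stood at 546 and 477 normalized counts in TGFβ/IL-34, at 6091, 5883 and 6644 in TGFβ/IL-34/Jag1 and at 574, 503 and 1498 in TGFβ/IL-34/Jag1/FICZ. It rose with Jag1 by 3.60 ± 0.380 and fell with FICZ in the presence of Jag1 (−3.03 ± 0.340) on the log2 scale (SE, limma, adjusted p = 0.000533 and 0.000268). Rab37, a small GTPase gene of vesicle transport that encloses Cd300lf on the opposite strand, rose with Jag1 by 2.32 ± 0.233 (adjusted p = 0.000440, limma) and fell with FICZ in the presence of Jag1 (−1.19 ± 0.209, adjusted p = 0.00306), each opposite in sign to Cd300lf. Rab37 shares no exon base with Cd300lf (0 of 5149), so their exonic reads are separable. Kif19a and Ttyh2 on one side and Nherf1 (listed as Slc9a3r1 in the table), Nat9 and Tmem104 on the other did not pass in either comparison. Within the cluster itself, Cd300a and Cd300lb at one end and Cd300lf at the other were higher for FICZ with Jag1. Cd300c2, Cd300ld3 and Cd300e between them were lower. For Jag1 without FICZ the signs were reversed, but the differences of Cd300a (−0.16 ± 0.150, SE) and Cd300lb (−0.69 ± 0.269) did not pass.

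**Figure D5:**
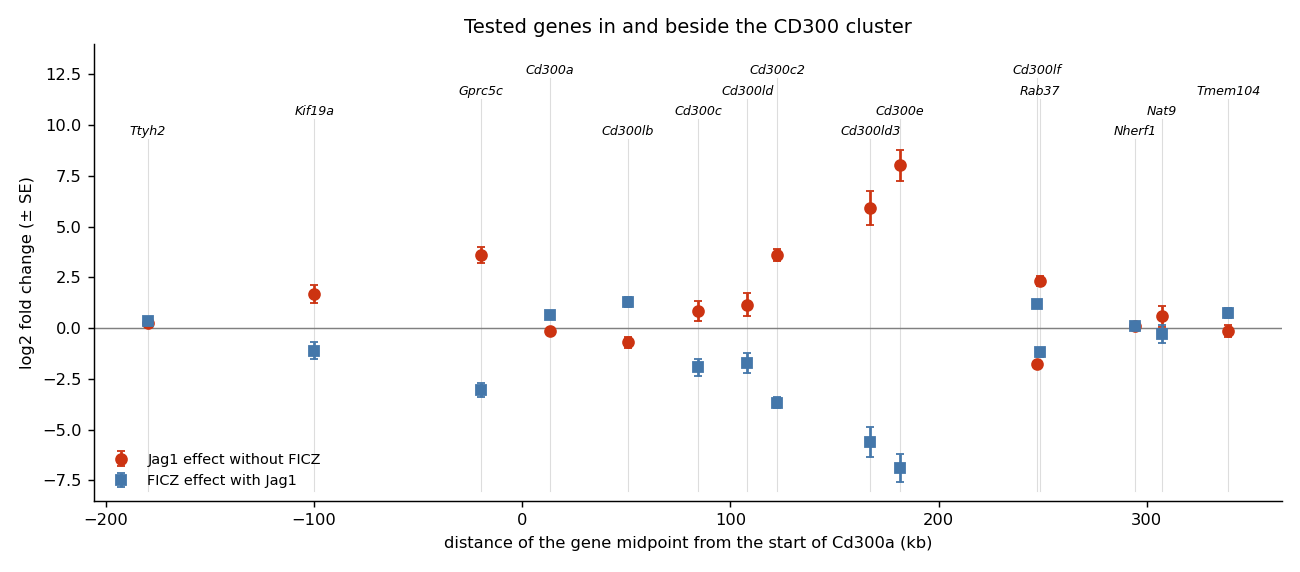
Log2 differences (y axis, points with SE bars) of the tested genes in and beside the CD300 cluster against the distance of the gene midpoint from the start of Cd300a (x axis, kb), for Jag1 without FICZ (circles) and FICZ with Jag1 (squares). Gprc5c (3.60 and −3.03) lies beside the cluster and Cd300e (8.04 and −6.89) has the widest differences.

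The gene lists in this and the following paragraphs were chosen with earlier results of these data known. Their counts, medians and p-values are therefore given as a description. Levels of the adaptor genes spanned a narrower range than those of Cd300e. Tyrobp stood at 8240 and 7708 normalized counts in TGFβ/IL-34, at 7165, 6117 and 7390 in TGFβ/IL-34/Jag1 and at 6278, 5728 and 6637 in TGFβ/IL-34/Jag1/FICZ. In TGFβ/IL-34/FICZ, its 2 libraries differed (17179 and 8751). Fcer1g stood at 1737 to 4928 in the groups without Jag1 and at 1426 to 2417 in the Jag1 groups with TGFβ and IL-34. Hcst was the lowest of the adaptors, at 39.4 to 169.3 across all samples. None of the 3 passed in any of the 6 comparisons (limma). For Jag1 without FICZ, their log2 differences were −0.21 ± 0.250 for Tyrobp, −0.05 ± 0.356 for Fcer1g and −0.68 ± 0.391 for Hcst (SE, adjusted p = 0.744, 0.965 and 0.409), and for FICZ with Jag1 they were −0.15, −0.34 and 0.98 (adjusted p = 0.734, 0.540 and 0.0827).

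Of 18 genes for signalling partners of the family, 1 rose and 2 fell with Jag1 without FICZ, against 2.64% and 3.96% of all tested genes, and the list's median log2 difference was −0.30 against −0.0041 over all tested genes. The gene that rose was Lyn (0.70, adjusted p = 0.0265), a Src-family kinase that phosphorylates inhibitory motifs, and Src and Btk fell (−0.80 and −0.85, adjusted p = 0.0307 and 0.0276). The calls of Lyn and Src were lost with any 1 of the 5 libraries left out (Lyn 0.65 to 0.73, Src −0.95 to −0.66), and that of Btk with any but replicate 2 of TGFβ/IL-34/Jag1. With FICZ in the presence of Jag1, 1 rose and 4 fell, against 10.9% and 6.71% of all genes, with a median of 0.17 against −0.0083. Lyn fell (−0.81, adjusted p = 0.00290), as did Vav1, a guanine nucleotide exchange factor (−0.90, adjusted p = 0.00505), Card9, an adaptor downstream of Syk (−1.31, adjusted p = 0.00798), and the phosphatase gene Inpp5d (−0.87, adjusted p = 0.0221), whereas Pik3r1, a regulatory subunit of PI3 kinase, rose (1.00, adjusted p = 0.00652; limma throughout). The Inpp5d call was lost without TGFβ/IL-34/Jag1/FICZ replicate 1, 2 or 3 or replicate 3 of TGFβ/IL-34/Jag1 (−0.69 to −0.91). Syk, Ptpn6 and Ptpn11 did not pass in these comparisons.

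Those other paired receptors of myeloid cells that passed were lower with Jag1, the direction of Cd300lf and not of Cd300e. Of 20 such genes, 19 were tested, and 8 fell and 0 rose with Jag1 without FICZ, against 3.96% and 2.64% of all genes, with a median log2 difference of −1.06 against −0.0041. The sialic acid receptor gene Siglecf stood at 864.5 and 873.3 normalized counts in TGFβ/IL-34 and at 18.8, 24.3 and 24.2 in TGFβ/IL-34/Jag1 (−5.22, adjusted p = 0.000828). Trem1, an activating receptor that amplifies inflammatory signals, stood at 2053 and 2063 against 116.0, 175.5 and 303.1 (−3.48, adjusted p = 0.000440). Treml4 fell by 3.80 (adjusted p = 0.000747). Of the other 5, Cd200r1 passed in all 15 alternatives, while Fcgr2b, Pilra, Lilrb4a and Lilrb4b no longer passed without TGFβ/IL-34 replicate 2 (−1.01, −1.39, −0.89 and −1.15). With FICZ in the presence of Jag1, 6 rose and 0 fell, against 10.9% and 6.71% of all genes, with a median of −0.05 against −0.0083. Siglecf stood at 529.6, 618.0 and 665.5 with FICZ (4.69, adjusted p = 0.000290), Trem1 at 1491, 1535 and 1780 (3.11, adjusted p = 0.000154), and Clec12a, an inhibitory lectin receptor, rose by 3.09 (adjusted p = 0.000202, limma for all). The Clec4a2 call was lost in 8 of 16 alternatives. No gene of this list passed in the direction of Cd300e, higher with Jag1 or lower with FICZ. Since the list was chosen with earlier results known, its difference in direction from Cd300e is a description only.

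Genes of non-classical monocytes, the cells for which Cd300e is known as a marker, were taken as a list of 11 tested genes. With Jag1 without FICZ, 1 rose (Fabp4, 3.09, adjusted p = 0.0139) and 1 fell (Treml4), against 2.64% and 3.96% of all genes, with a median of −0.13, and Fabp4 no longer passed without either TGFβ/IL-34 sample (3.08 and 3.11). With FICZ in the presence of Jag1, 2 rose and 1 fell, against 10.9% and 6.71% of all genes. Treml4 rose (3.01, adjusted p = 0.000531), as did Cx3cr1 (2.36, adjusted p = 0.0340), the fractalkine receptor gene and a low-level gene at 1.402 to 40.2 normalized counts. Ace, the angiotensin-converting enzyme gene, fell (−2.20, adjusted p = 0.0198, limma). The Cx3cr1 call was lost in 10 of 16 alternatives and the Ace call in 4 of 16.

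Markers of other cells differed between the groups. The summed level of 5 classical monocyte markers was 90.7 to 147.8 normalized counts in TGFβ/IL-34/Jag1, 819.6 to 1444 in TGFβ/IL-34, 3748 to 3783 in TGFβ/IL-34/FICZ, 3894 to 4528 in TGFβ/IL-34/Jag1/FICZ and 944.6 in Jag1 only. For 5 granulocyte progenitor markers, the ranges were 75.02 to 254.8, 295.9 to 464.1, 2221 to 4127, 4424 to 7344 and 432.9 in the same order. The 6 neutrophil markers summed to 122.9 to 234.4, 200.5 to 1124, 1044.9 to 1049, 1961 to 2873 and 288.6 in that order, with Ly6g at 0 in every group but TGFβ/IL-34. The 6 mast cell and basophil markers summed to 131.8 to 188.8, 657.0 to 862.9, 4036 to 4047, 2277 to 4607 and 2335, with Fcer1a at 0 throughout. The 5 macrophage markers summed to 23016 to 49189, 39081 to 39938, 14331 to 27535, 12288 to 20415 and 6792. With Jag1 without FICZ the macrophage list moved in both directions, C1qa, a complement gene, being higher by 4.01 (adjusted p = 0.00249) and Fcgr1, an Fc receptor gene, and Adgre1 (F4/80) lower (−3.14 and −1.13, adjusted p = 0.0166 and 0.0388, limma). OP9 stroma markers (7 genes, Dcn at 0 in every library) summed to 217.4 to 712.3 in TGFβ/IL-34/Jag1 and 510.6 to 2703 in TGFβ/IL-34/Jag1/FICZ, but to 11.1 to 37.99 in the groups without Jag1. Lymphocyte markers (4 genes) were at no more than 34.1 in any library. Cd300e and Cd300c2 were thus highest in the group with the lowest classical monocyte and granulocyte progenitor sums and the highest Langerhans cell marker sum. That last sum does not speak for each of its markers. For Jag1 without FICZ, 6 of the 7 Langerhans cell markers were higher and 1 was lower. Of these, 1 passed (higher), against 2.64% of all tested genes. In TGFβ/IL-34/FICZ the classical monocyte and granulocyte progenitor sums were above those of TGFβ/IL-34. There, Cd300a was higher than in TGFβ/IL-34 (log2 difference 0.55). Cd300e, Cd300ld, Cd300c2, Cd300lb and Cd300lf were lower (−4.52, −0.94, −0.48, −0.43 and −0.24), and Cd300ld3 was at 0 in both groups. None of the 7 members passed, where 0.0229% of all tested genes did. The part of these cells in the CD300 levels was not tested.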

How the data were processed

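The authors quantified reads with salmon against Ensembl GRCm39 transcripts, summed them to genes with tximport and scaled them with DESeq2, and the authors deposited the resulting normalized counts, a signal per gene and sample that is neither whole counts nor log-transformed. Tool versions are not given in the sources used here. All 11 columns were mapped to samples. The 7 members and all gene lists were chosen with earlier results of these data known. Genes with at least 10 in at least 2 samples (13095) were fitted as log2(value + 1) with limma 3.58.1 in R 4.3.3 (eBayes with trend), with 1 mean per group, all 11 samples, 6 residual degrees of freedom and Benjamini-Hochberg adjustment within each of 6 contrasts (two-sided, threshold 0.05). The deposited values are not counts, so no count model was run. The fit was tested on simulated data.

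Named were all Cd300 genes, the genes annotated between the first and last member with the 3 nearest tested genes on either side, per list up to 3 passing genes in each direction whose higher group averaged 50 or more (Cx3cr1, Cd200r1, Fcgr2b, Pilra, Lilrb4a, Lilrb4b, Clec4a2, Syk, Ptpn6, Ptpn11 and, for FICZ with Jag1, Lyn were named after their values were seen), every adaptor, and the 3 profiles closest to each member. Bounds set a group at 0 to 3 reads per library, with the worth of a read taken from low values of single-transcript genes. Upstream windows, transcript words and coding identity came from GRCm39 and GENCODE vM39 (Biopython 1.88). Protein features were not analysed here. Samples of TGFβ/IL-34/Jag1/FICZ and of TGFβ/IL-34/Jag1 with the same number carry the same experiment code. Their deviations correlated weakly (r 0.153, 0.122 and 0.166), so these numbers may pair the samples. The errors and adjusted p-values given above come from the fit without pairing, and the replicate block takes this pairing into account. Same-numbered samples in the comparisons with TGFβ/IL-34 carry different codes in their descriptions, so the replicate block does not pair by experiment there. The experiment block follows the codes of the descriptions. Correlations of TGFβ/IL-34 samples with differently numbered samples of the same code were not computed. The 2 same-numbered pairs of Jag1 with FICZ also share a code (r 0.0591 and 0.0578). Settings tried instead were array weights, quantile normalization, a pseudocount of 0.5 or 4, no filter, only the groups compared, blocks for replicate, experiment, flow cell and the authors' code (added after seeing the data), and leaving out each replicate. Where this left 1 sample in a group of 2, that sample was assumed to vary like the other groups. Ratios and bounds without single libraries were also added after seeing the data.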

Additional observations from a re-analysis of the deposited data

Results flagged for a closer look

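Results are listed here because the FICZ difference was not the same with Jag1 as without it, by the interaction term of the fit. Among the CD300 genes these were Cd300ld3 (interaction −5.60 on the log2 scale), Cd300c2 (−3.20) and Cd300lf (1.46). For the members this term is a description, since they were chosen on these samples. The list of other paired receptors was also chosen with earlier results known, and its terms are a description too. The Cd300ld3 call was lost in 16 of 20 alternatives, that of Cd300lf in 7 and that of Cd300c2 in 4, and the Cd300ld3 value is set by a gene at 0 in both groups without Jag1. Among the other paired receptors, the interaction was 4.94 for Siglecf (limma, adjusted p = 0.0348), 3.10 for Trem1 (adjusted p = 0.0268) and 3.04 for Treml4 (adjusted p = 0.0433). These calls were lost in 10, 7 and 13 of 20 alternatives, and among them with either TGFβ/IL-34 sample left out.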

How the results depend on the processing

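The number of members past the threshold was 4 for Jag1 without FICZ (4 in every leave-one-out fit), 0 for FICZ without Jag1 (0 to 2), 0 for both together (0 to 0), 7 for FICZ with Jag1 (6 to 7), 1 for Jag1 with FICZ (1 to 2) and 3 for the interaction (0 to 4). Array weights gave 3 for both together, 0 for Jag1 with FICZ and 0 for the interaction, fitting only the groups compared gave 2 for both together and 0 for Jag1 with FICZ, and the experiment block gave 1 for the interaction. With the replicate block, 7 passed for FICZ with Jag1 and 1 for Jag1 with FICZ, where same-numbered samples carry the same experiment code, and 4, 0, 0 and 2 in the other comparisons (interaction last). Signs turned for small differences only. For both together, Cd300ld3 was at −0.043 with the replicate block, and Cd300c2 at 0.097 with the experiment block, 0.084 with the flow cell block and −0.36 to 0.14 with 1 sample left out (0.14 without TGFβ/IL-34/Jag1/FICZ replicate 1). For Jag1 with FICZ, Cd300ld3 was at −0.34 with quantile normalization and −0.043 with the replicate block, and Cd300ld at −0.0017 with quantile normalization and −0.070 to 0.63 with 1 sample left out (−0.070 without TGFβ/IL-34/Jag1/FICZ replicate 3). Fcer1g with Jag1 was at −0.14 to 0.060 with 1 sample left out (0.060 without TGFβ/IL-34/Jag1 replicate 2) and 0.16 with the authors' code block. Of 662 refitted differences of members, 609 kept direction and side of the threshold. Over all genes, the number past the threshold ranged over the alternatives from 195 to 2627 (864 as reported) for Jag1 without FICZ, 0 to 5734 (3) for FICZ without Jag1, 35 to 3558 (587) for both, 1389 to 4123 (2312) for FICZ with Jag1, 0 to 5827 (264) for Jag1 with FICZ and 8 to 5497 (182) for the interaction. The highest counts came with array weights or without TGFβ/IL-34/FICZ replicate 2, and the cause was not tested. Words of 75 in place of 31 bases gave a shared fraction of 81.5% for Cd300ld3 and at most 2.80% for the other members. Groups of 1 to 3 samples limit the precision of every difference.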

Other observations

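Cd300lg, the member of the family that lies outside the cluster and is known from endothelium, had signal above the worth of 1 read in TGFβ/IL-34/FICZ only. It stood at 7.20 and 10.4 normalized counts in the 2 TGFβ/IL-34/FICZ samples, at 0.811 in Jag1 only, which is the worth of less than 1 read, and at 0 in the other 8 samples. Against the floor of 3 reads per library, its mean in TGFβ/IL-34/FICZ was at least 3.07-fold higher than in TGFβ/IL-34 and at least 3.04-fold higher than in TGFβ/IL-34/Jag1/FICZ. Of its 3248 exon bases, 118 overlap Mpp2 on the opposite strand, and 4.18% of its 31-base words occur in other genes, among them Mpp2, so part of the reads may not be separable. The gene was below the filter of the fit and was not tested, and it was chosen after its values were seen.

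In replicate 3 of TGFβ/IL-34/Jag1/FICZ, several genes lay between the other 2 samples of the group and TGFβ/IL-34/Jag1. Cd300e stood at 170.8 there against 18.6 and 37.6, Cd300c2 at 270.7 against 134.8 and 165.1, Cd300ld at 51.1 against 20.5 and 18.8, Gprc5c at 1498 against 574.2 and 503.2, and Cd207 at 132.2 against 8.39 and 6.29. Cd300lf, by contrast, was at 1041 against 962.6 and 939.7, on the side away from TGFβ/IL-34/Jag1. The cause of this spread was not tested.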
